A study of Mus musculus with 19 samples.

Results

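The 41 genes described here carry out the licensing of replication origins and the work of the replication fork. They were chosen by function, as the genes of origin recognition, helicase, clamp, polymerases and nucleotide supply, and not by their measured values. Earlier results of these data were known when they were chosen. All 41 were found among the 52143 genes of the deposited count table. Poly(A) RNA was sequenced from 19 libraries of 10 lines of mouse induced pluripotent stem cells (iPSCs), cells returned from fibroblasts to a state that can form every tissue of the body. The fibroblasts came from embryos of day 14.5 bred from OB-Rdb/+ heterozygous mice and were reprogrammed with the STEMCCA lentivirus, which carries Oct4, Sox2, Klf4 and cMyc, so that all 3 groups share this history. The corrected group (lines db_c_1 and db_c_2, 4 libraries) consists of db/db iPSCs whose mutation was corrected with CRISPR-Cas9. The db/db group (adb_db7, bdb_db7, adb_db5 and bdb_db5, 8 libraries) is homozygous for the db allele of Lepr, the leptin receptor gene, and the control group (aB6_B1, bB6_B1, aB6_A5 and bB6_A5, 7 libraries) is wild type. The labels name neither the parent line of the corrected lines nor separate cultures behind the libraries, so p-values here measure spread among these lines, which may be technical.

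Before DNA can be copied, the origin recognition complex marks the starting sites, and Cdc6 and Cdt1 help it to load the ring-shaped helicase of the Mcm proteins. In S phase the helicase is activated by Cdc45 and the GINS complex, polymerases copy both strands, and the sliding clamp Pcna, placed by the loader of the Rfc proteins, holds them on the template. Mouse pluripotent stem cells are known for a short G1 phase and for high levels of these factors through most of their cycle, and many of the genes are known targets of the E2F transcription factors.

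The libraries held 27333914 to 41203703 estimated counts (median 34455891), and duplicates were summed per line. Levels are CPM, counts brought to a common library size, with sizes scaled by TMM, a method that aligns the bulk of the genes between lines. Fold changes are log2 ± SE from edgeR's quasi-likelihood test, and a gene was called at a Benjamini-Hochberg adjusted p under 0.05 over 19700 tested genes. The pluripotency genes Pou5f1 (1287 to 1604 CPM), Sox2 (394 to 727 CPM), Nanog (384 to 617 CPM) and Zfp42 (60.0 to 78.3 CPM) were expressed in all lines, as the cell type label states. Lepr itself had 0.186 to 0.718 CPM over the lines, and since the db mutation alters splicing, its count does not check the genotype. Lines whose names differ only in the letter a or b (db7, db5, B1, A5) had like levels, as the map of levels by line shows, so that tests with the line as the unit may give p-values that are too small.

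All 41 genes passed the filter on low counts, and their mean levels over the lines ranged from 12.0 to 484.8 CPM. These levels are not per length, so they are compared between lines and not between genes. Values of single lines are given in the order db_c_1 and db_c_2, then adb_db7, bdb_db7, adb_db5 and bdb_db5, then aB6_B1, bB6_B1, aB6_A5 and bB6_A5.

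The corrected lines had lower levels of most replication genes than the db/db lines. In this comparison 24 of the 41 genes fell and 1, Orc4, rose, with 16 not called. Over all tested genes 18.0% fell and 18.7% rose, and among the 9148 tested genes that average 10 CPM or more, as all 41 do, 30.6% fell and 14.5% rose. In either direction 36.7% of all tested genes and 45.1% of those averaging 10 CPM or more were called. The share of the replication genes that fell was 58.5%, and the falls called ranged from -0.60 (Prim2) to -0.18 (Mcm4) on the log2 scale. The median log2 fold change of the 41 genes was -0.25, against 0.02 over all tested genes and -0.12 over those with at least 10 CPM. In bulk RNA, fewer cells in S phase and less of these transcripts per cell cannot be told apart.

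The size of this difference depended on the scaling. TMM factors were 1.09 in both corrected lines, 0.946 to 0.984 in db/db lines and 0.978 to 1.01 in control lines, and scaling by library size alone moved all fold changes of corrected against db/db lines up by 0.17 on the log2 scale. On that scale the median of the 41 genes was -0.07, and 6 genes fell (Mcm3, Rfc5, Rfc3, Fen1, Prim2 and Orc6) while 3 rose (Orc4, Orc3 and Orc5), against 9.22% and 26.5% of all tested genes (14.5% and 24.5% of those with at least 10 CPM). The summed level of the 41 genes was 5893 and 5883 CPM in corrected lines, 6702 to 6990 CPM in db/db lines and 6741 to 6824 CPM in control lines with TMM. On library size alone the sums were 6397 and 6408 CPM in corrected lines, 6368 to 6734 CPM in db/db lines and 6642 to 6830 CPM in control lines, so that corrected and db/db lines then overlapped. Lines of a shared name were also taken as 1 sample, with db_c_1 and db_c_2 kept as separate samples. There 8 genes fell (Mcm3, Rfc5, Rfc3, Fen1, Prim2, Cdt1, Orc6 and Prim1) and 0 rose, against 7.81% and 7.72% of the genes tested in that fit. Without corrected line db_c_1 the count of falls was 9, against 7.13% of all genes tested in that fit. Without db_c_2 it was 8, against 7.15%.

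Against control lines 16 of the 41 genes fell in corrected lines, Orc4 rose and 24 were not called, while 17.0% of all tested genes fell and 16.2% rose (26.9% and 15% among those with at least 10 CPM). The median of the 41 genes was -0.19, against -0.01 over all tested genes and -0.09 over those with at least 10 CPM. On the same other scale 9 genes fell and 3 rose (Orc4, Orc5 and Pole), against 10.4% and 22.4% of all tested genes (15.3% and 23.3% of those with at least 10 CPM). The median was then -0.06, and 23 of the 41 genes lay below 0. With shared names as the unit 5 fell (Mcm3, Rfc3, Cdt1, Rfc5 and Rfc2) and 0 rose, against 6.25% and 5.81% of the genes tested. Without db_c_1 the falls numbered 4, against 5.46%, and without db_c_2 they numbered 3, against 5.24%. Both comparisons use the same corrected lines and are not independent of each other.

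The db/db lines differed from control lines in few of these genes. Mcm5, Rfc1, Pola2 and Rpa1 rose and none of the 41 genes fell, while 7.41% of all tested genes rose and 9.5% fell (11.0% and 7.28% among those with at least 10 CPM). At an unadjusted p under 0.05 edgeR counted 8 genes higher and 1 lower, against 15.7% and 17.6% of all tested genes. DESeq2 called 5 higher and 0 lower, against 11.6% and 12.4%. The share that rose in the edgeR fit was 9.76%, near the background of 7.41% and 11.0%. Without aB6_B1 or without bB6_B1 only 1 gene rose, against 3.99% and 4.06% of all genes tested. Without any one of adb_db5, adb_db7, bdb_db5, db_c_1 and db_c_2 the count was 2, against 4.76% to 7.01%. Scaled by library size alone, 1 gene rose (Mcm5), against 5.51% of all tested genes, and with shared names as the unit none did, against 0.0946%. The median of the 41 genes, 0.03 as among genes with at least 10 CPM, turned to -0.01 with library size alone. With each library as a sample and the duplicate number as a replicate block, which counts duplicates of 1 line as separate samples, 9 rose and 4 fell, against 18.1% and 20.0% of the genes tested in that fit.

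**Figure D1:**
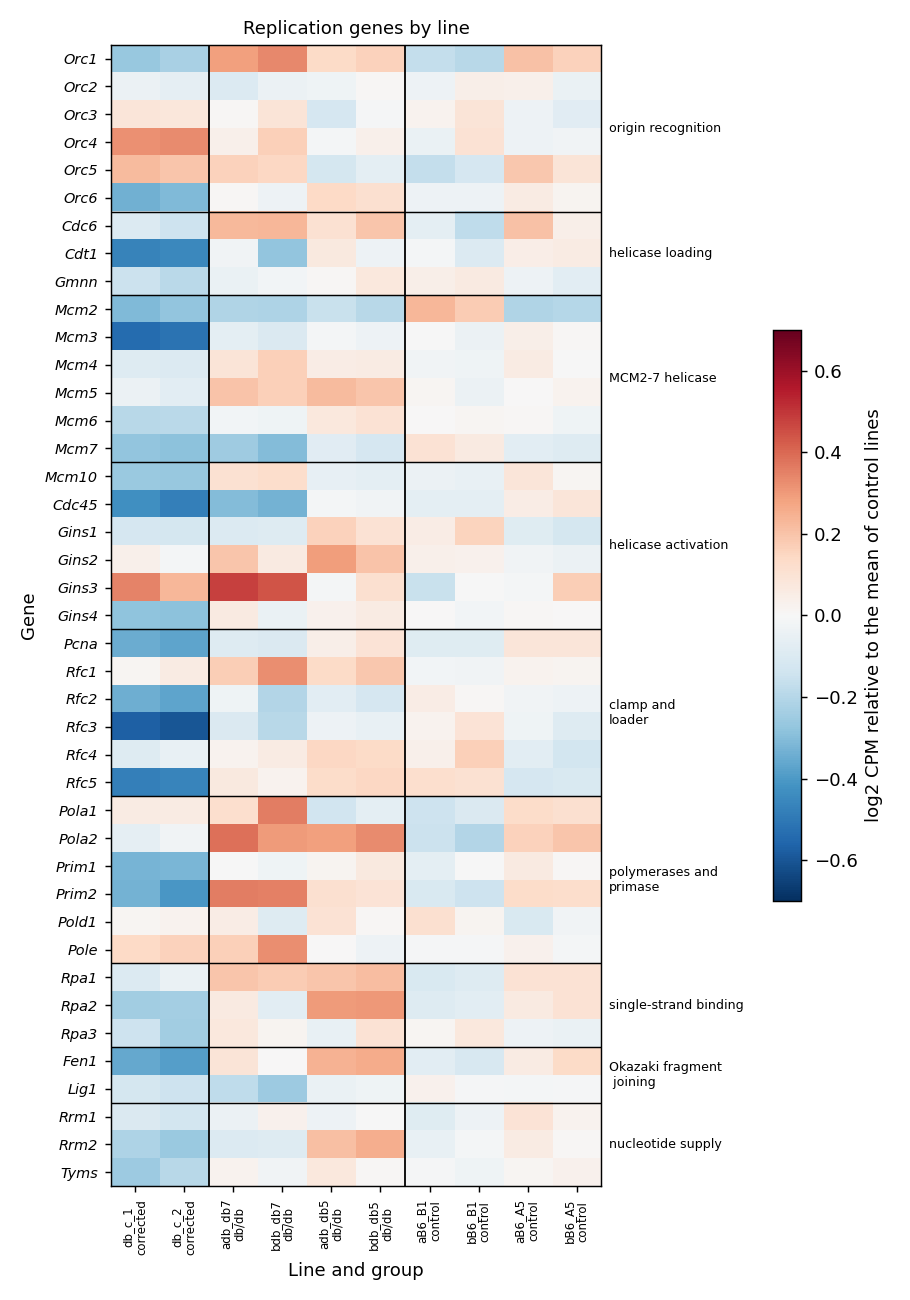
Each cell gives the log2 CPM of a gene (rows, grouped by role) in a line (columns, corrected, db/db and control from left to right) relative to the mean of the 4 control lines, on the TMM scale. The corrected lines were below all other lines for Mcm3, Rfc3, Rfc5, Cdt1 and Cdc45 and above them for Orc4. Lines alike but for the letter a or b had like colours in most genes. Lines adb_db7 and bdb_db7 differed in some, as in Cdt1 (-0.02 and -0.28) and Pola1 (0.12 and 0.36). Under scaling by library size alone all corrected values would lie higher by 0.13 relative to control, and some near 0 would change sign.

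The E2F proteins bind short sequences near the start of many replication genes. RefSeq promoter windows (250 bases before to 50 after the start, build GRCm38.p6) were at hand for 33 of the 41 genes and were searched on both strands for the 8-base words TTTCGCGC, TTTCCCGC, TTTGGCGC and TTTGCCGC, which can overlap one another. Such a word was present in 13 of the 33 windows (39.4%) and in 704 of 27025 genes with windows of the same length (2.60%). Among the genes that fell in corrected against db/db lines it was present in 7 of 20, and among the others in 6 of 13. The shorter word CCAAT was present in 22 of 33 windows (66.7%) and in 41.1% of all genes. A match describes the letters of the window and says nothing of binding there.

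The windows below belong to helicase and clamp loader genes that fell in corrected against db/db lines, and capitals mark the E2F-type words in them. All are read 5′ to 3′ on the strand of the gene: Mcm6 on the minus strand at chr1:128359706-128359865, Mcm5 on the plus strand at chr8:75109349-75109508, and Rfc3, Mcm3 and Rfc5 on the minus strand at chr5:151651201-151651288, chr1:20820267-20820296 and chr5:117389024-117389103. Those of Mcm6 and Mcm5 cover the 160 bases before the start, that of Rfc3 the 80 bases before it and 8 after, that of Mcm3 bases 17 to 46 after it, and that of Rfc5 the 80 bases before it, with no such word.
Mcm6: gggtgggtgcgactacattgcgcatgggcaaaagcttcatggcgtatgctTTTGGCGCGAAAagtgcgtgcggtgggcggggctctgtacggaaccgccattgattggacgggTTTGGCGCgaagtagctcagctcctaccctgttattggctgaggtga
Mcm5: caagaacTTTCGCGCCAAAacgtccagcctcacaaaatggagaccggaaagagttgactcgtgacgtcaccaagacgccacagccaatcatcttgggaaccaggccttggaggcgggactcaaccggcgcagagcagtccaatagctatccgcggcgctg
Rfc3: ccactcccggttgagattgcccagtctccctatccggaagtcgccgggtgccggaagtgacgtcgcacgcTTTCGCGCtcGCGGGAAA
Mcm3: gtgGCGGGAAAacttgggaagtTTTGGCGC
Rfc5: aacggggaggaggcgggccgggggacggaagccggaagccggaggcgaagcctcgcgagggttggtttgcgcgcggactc
Mcm6 holds 3 of these words, and Mcm5, Rfc3 and Mcm3 hold 2 each. The longest run that the Mcm6 window shares with the reverse complement of the Mcm5 window is the 13 bases TTTTGGCGCGAAA, which stand in Mcm5 as TTTCGCGCCAAAA. Runs shared on the same strand were not searched. Among all RefSeq windows the 13 bases are present, on either strand, in 3 genes (Mcm5, Mcm6 and Mycn). Whether the words of a window go with the level of its gene was not tested.

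Within the origin recognition complex, the 6-protein assembly that marks origins, the genes moved apart. Orc6, its smallest subunit, had 68.8 and 70.4 CPM in corrected lines, against 87.4, 84.8, 95.9 and 94.0 CPM in db/db lines. Control lines had 84.8, 84.9, 90.5 and 88.2 CPM. Both corrected lines were below all other lines, and Orc6 fell by 0.38 on the log2 scale against db/db lines (adjusted p = 0.00231) and by 0.32 against control lines (adjusted p = 0.00587). Orc4, a core subunit, had 47.4 and 47.7 CPM in corrected lines, against 38.9, 42.7, 37.7 and 38.9 CPM in db/db lines. Control lines had 36.8, 40.8, 37.1 and 37.4 CPM. Here both corrected lines were above all others, and the rise was 0.27 ± 0.07 against db/db lines (adjusted p = 0.0177) and 0.32 ± 0.07 against control lines (adjusted p = 0.00841), a level 1.2 times that of db/db lines. These rises had adjusted p-values of 0.106 and 0.0776 with shared names as the unit.

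Orc1, the subunit whose level is regulated over the cell cycle, had 49.4 and 50.7 CPM in corrected lines, against 72.4, 74.9, 65.3 and 66.5 CPM in db/db lines. Control lines had 52.8, 51.8, 68.4 and 66.4 CPM. It fell against db/db lines (-0.48 ± 0.12, adjusted p = 0.0139), but B1 control lines lay near the corrected lines and the difference from control lines was not called (-0.26 ± 0.12, adjusted p = 0.133). Orc2, Orc3 and Orc5 were not called in any comparison of groups, with log2 values of -0.01, 0.09 and 0.17 in corrected against db/db lines. Orc2 shares 27.8% of its 31-base words with Nif3l1 (either strand), so its level is less certain. As a share of the counts of the complex, which no scaling of libraries touches, Orc4 made up 10.8 and 10.9% in corrected lines, 8.48, 9.07, 8.4 and 8.48% in db/db lines and 8.61, 9.2, 7.93 and 8.31% in control lines. The shares of Orc6 ran the other way, with 15.8 and 16.1% in corrected lines, 19, 18, 21.4 and 20.5% in db/db lines and 19.8, 19.1, 19.3 and 19.6% in control lines.

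Of the loading factors, Cdt1, which brings the Mcm helicase to the origin, had 139.5 and 141 CPM in corrected lines, against 189.7, 159, 202 and 188 CPM in db/db lines. Control lines had 191, 181, 199 and 201 CPM. It fell in corrected lines against both other groups (-0.40 ± 0.09, adjusted p = 0.00771, against db/db lines and -0.46 ± 0.09, adjusted p = 0.00446, against control lines), and line bdb_db7 was the lowest of the other lines. Cdc6, the ATPase that works with Cdt1, had 41.8 and 40.5 CPM in corrected lines, against 52.4, 52.5, 48.1 and 51.2 CPM in db/db lines. Control lines had 42.7, 39.5, 51.5 and 46.0 CPM. Its levels in corrected lines were below all db/db lines (-0.31 ± 0.10, adjusted p = 0.0337) but within the range of control lines (-0.13 ± 0.10, adjusted p = 0.35). Gmnn, geminin, the inhibitor of Cdt1, was not called, with means of 65.5 ± 1.31, 73.9 ± 2.73 and 73.7 ± 3.21 CPM in corrected, db/db and control lines (SD, n = 2, 4 and 4) and a log2 value of -0.17 ± 0.06 against db/db lines (adjusted p = 0.056). Single libraries had 70.5 and 62.5 CPM of Gmnn in db_c_1 and 62.6 and 68.3 CPM in db_c_2. Cdt1 had 133 and 151 CPM, then 152 and 132 CPM, in the same libraries. Sums per line even out such differences, so the SD over corrected lines is smaller than the spread among libraries.

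The 6 genes of the Mcm helicase, which unwinds the parental strands, did not move as a block. Mcm3 had 305 and 309 CPM in corrected lines, against 422, 413, 438 and 431 CPM in db/db lines. Control lines had 441, 429, 455 and 444 CPM. The corrected lines lay clear of all others, at 0.721 times the level of db/db lines, and Mcm3 had the lowest adjusted p of the 41 genes (-0.47 ± 0.05, adjusted p = 0.000219, against db/db lines and -0.53 ± 0.05, adjusted p = 0.000164, against control lines). With library size alone the values were -0.30 and -0.40, and the calls were kept there and with shared names as the unit (adjusted p = 0.0205 and 0.0218).

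Mcm5 had 357 and 349 CPM in corrected lines, against 421, 413, 427 and 420.5 CPM in db/db lines. Control lines had 370.5, 357, 367 and 373 CPM. The db/db lines stood above all corrected and all control lines, which lay near each other. Mcm5 fell in corrected against db/db lines (-0.25 ± 0.05, adjusted p = 0.00347) and rose in db/db against control lines (0.20 ± 0.04, adjusted p = 0.0101). Corrected against control lines gave -0.06 ± 0.05 (adjusted p = 0.394). Mcm5 was the only one of the 4 genes that rose in db/db lines whose call held with library size alone (0.15), and none held with shared names as the unit (for Mcm5, adjusted p = 0.284). Mcm6 had 348 and 350.4 CPM in corrected lines, against 394, 390.5, 419 and 428 CPM in db/db lines. Control lines had 399.8, 402, 401 and 391 CPM, with every corrected line below every other line. The falls of Mcm6 and Mcm4 against db/db lines (-0.22 ± 0.06 and -0.18 ± 0.06, adjusted p = 0.0117 and 0.0272) were not called with library size alone.

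Mcm2 and Mcm7 were not called in corrected against db/db lines. Mcm2, which lies on chromosome 6, had 411 and 420.0 CPM in corrected lines, against 439, 437, 457 and 445 CPM in db/db lines. Control lines had 597, 576, 439 and 444 CPM. The B1 control lines, with a median log2 of 0.28 over the genes of chromosome 6 against the A5 lines (401 genes with at least 10 CPM), held the high values, and Mcm2 rose by 0.41 on the log2 scale in B1 against A5 lines (adjusted p = 6.46e-06). Mcm7 had 437 and 433 CPM in corrected lines, against 445, 429, 500.1 and 487 CPM in db/db lines. Control lines had 567, 552, 503 and 496 CPM. It fell in corrected against control lines (-0.28 ± 0.08, adjusted p = 0.0245), and its comparison with db/db lines, which it overlapped, gave -0.10 ± 0.08. Mcm7 shares 24.4% of its 31-base words with the predicted gene Gm5487, which had 0.0131 to 0.114 CPM.

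As shares of the counts of all 6 genes, Mcm3 made up 14 and 14.2% in corrected lines, 17, 16.8, 16.9 and 16.8% in db/db lines and 16.3, 16.2, 18.1 and 17.9% in control lines. The share in corrected lines was the lowest on any scaling, since it uses counts within a line. Mcm2 made up 18.9 and 19.3% in corrected lines, 17.7, 17.8, 17.6 and 17.4% in db/db lines and 22, 21.7, 17.4 and 17.8% in control lines, with the B1 lines highest.

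**Figure D2:**
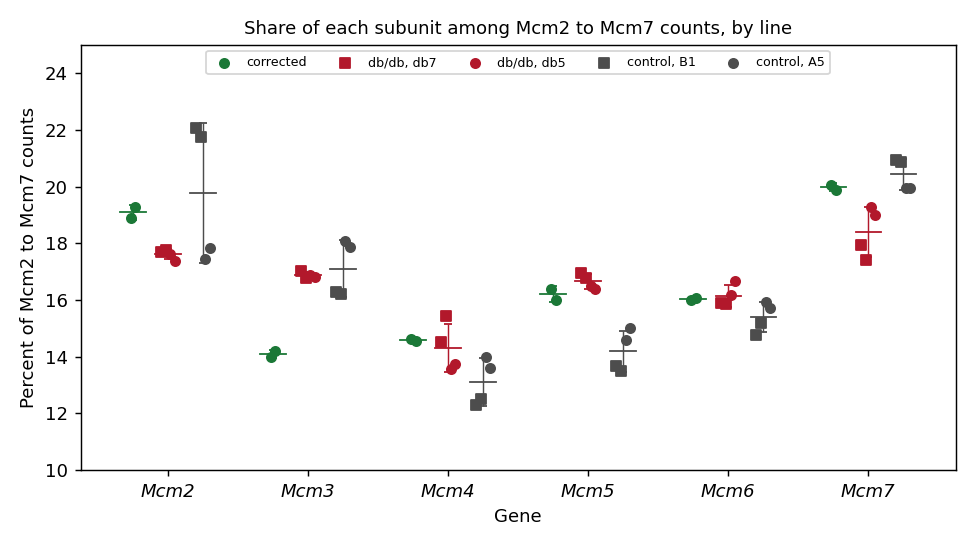
Share of each gene among the counts of Mcm2 to Mcm7 (percent, vertical axis) by gene, with a point per line, a horizontal bar for the mean and a vertical bar for the SD. The corrected lines had the lowest shares of Mcm3 (14.0% and 14.2%), and the B1 control lines the highest of Mcm2 (22% and 21.7%).

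The genes that turn the loaded ring into a running helicase were mixed. Gins4, a GINS subunit, had 52.0 and 51.9 CPM in corrected lines, against 66.0, 61.3, 64.5 and 65.9 CPM in db/db lines. Control lines had 63.4, 62.5, 63.7 and 63.5 CPM. Gins4 was lowest in both corrected lines and fell against db/db lines (-0.31 ± 0.06, adjusted p = 0.00253) and control lines (-0.29 ± 0.06, adjusted p = 0.00453). Mcm10, which acts in helicase activation, had 159 and 158 CPM in corrected lines, against 204, 207, 183 and 181 CPM in db/db lines. Control lines had 185, 183, 201 and 192 CPM. Both corrected lines were below all others (-0.29 ± 0.07 against db/db lines, adjusted p = 0.013). Cdc45, the partner of GINS on the helicase, had 62.9 and 61.0 CPM in corrected lines, against 68.8, 67.5, 84.0 and 83.3 CPM in db/db lines. Control lines had 80.8, 80.9, 88.1 and 89.9 CPM. It fell by 0.29 on the log2 scale against db/db lines (adjusted p = 0.0496), and db7 lines were between corrected and db5 lines. Against control lines it gave -0.46 ± 0.10 (adjusted p = 0.00902). Gins1 and Gins3 were not called against either group, and Gins2, whose 31-base words are 66.2% shared with Gse1 (123 to 146 CPM), is uncertain (-0.18 ± 0.07 against db/db lines, adjusted p = 0.075).

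Of the clamp and its loader, 4 of 6 genes fell against each of the other groups, and against db/db lines Rfc5 had the largest fall of the 41 genes after Prim2. Rfc5, a small subunit, had 147 and 148 CPM in corrected lines, against 214, 208, 223 and 226 CPM in db/db lines. Control lines had 221, 219.9, 188 and 189 CPM. Its corrected levels were 0.678 times those of db/db lines (-0.56 ± 0.08, adjusted p = 0.000863) and it fell against control lines as well (-0.47 ± 0.08, adjusted p = 0.00232). Rfc3, another small subunit, had 28.8 and 28.3 CPM in corrected lines, against 39.9, 37.3, 41.7 and 41.3 CPM in db/db lines. Control lines had 43.5, 45.6, 42.0 and 40.1 CPM. It fell by 0.49 against db/db lines (adjusted p = 0.00118) and by 0.59 against control lines (adjusted p = 0.000611) on the log2 scale, and no corrected library reached a library of another group.

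Pcna, the sliding clamp, had 292 and 288 CPM in corrected lines, against 349, 346, 382 and 396 CPM in db/db lines. Control lines had 350.2, 351, 394 and 394 CPM. The clamp fell against both groups (-0.34 ± 0.08, adjusted p = 0.00861, and -0.36 ± 0.08, adjusted p = 0.00803), and its 31-base words are 23.3% shared with Pcna-ps2, which had 0.109 to 0.411 CPM. Rfc2 also fell against both (-0.25 ± 0.06 and -0.36 ± 0.07, adjusted p = 0.0134 and 0.00291). Its 31-base words are 14.6% shared with Lat2, which had 0.332 to 0.572 CPM. Rfc1, the large subunit that forms the loader with Rfc2 to Rfc5, had 176 and 182 CPM in corrected lines, against 197, 218, 191 and 198 CPM in db/db lines. Control lines had 172, 171, 177 and 176 CPM. It rose in db/db against control lines (0.21 ± 0.05, adjusted p = 0.0227), with every db/db line above every control line, and was not called in corrected against db/db lines (-0.17 ± 0.06, adjusted p = 0.0593). Rfc4 was not called (-0.16 ± 0.09 against db/db lines) and shares 10.5% of its 31-base words with Eif4a2, which is expressed at 481 to 830 CPM. Of the counts of Rfc1 to Rfc5, Rfc1 made up 41.1 and 41.8% in corrected lines, 36.3, 39.8, 34.9 and 35.7% in db/db lines and 32.3, 32.2, 35.6 and 35.6% in control lines, and Rfc5 34.2 and 34.1%, 39.5, 37.9, 40.7 and 40.7% and 41.5, 41.2, 37.8 and 38.3% in the same groups.

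**Figure D3:**
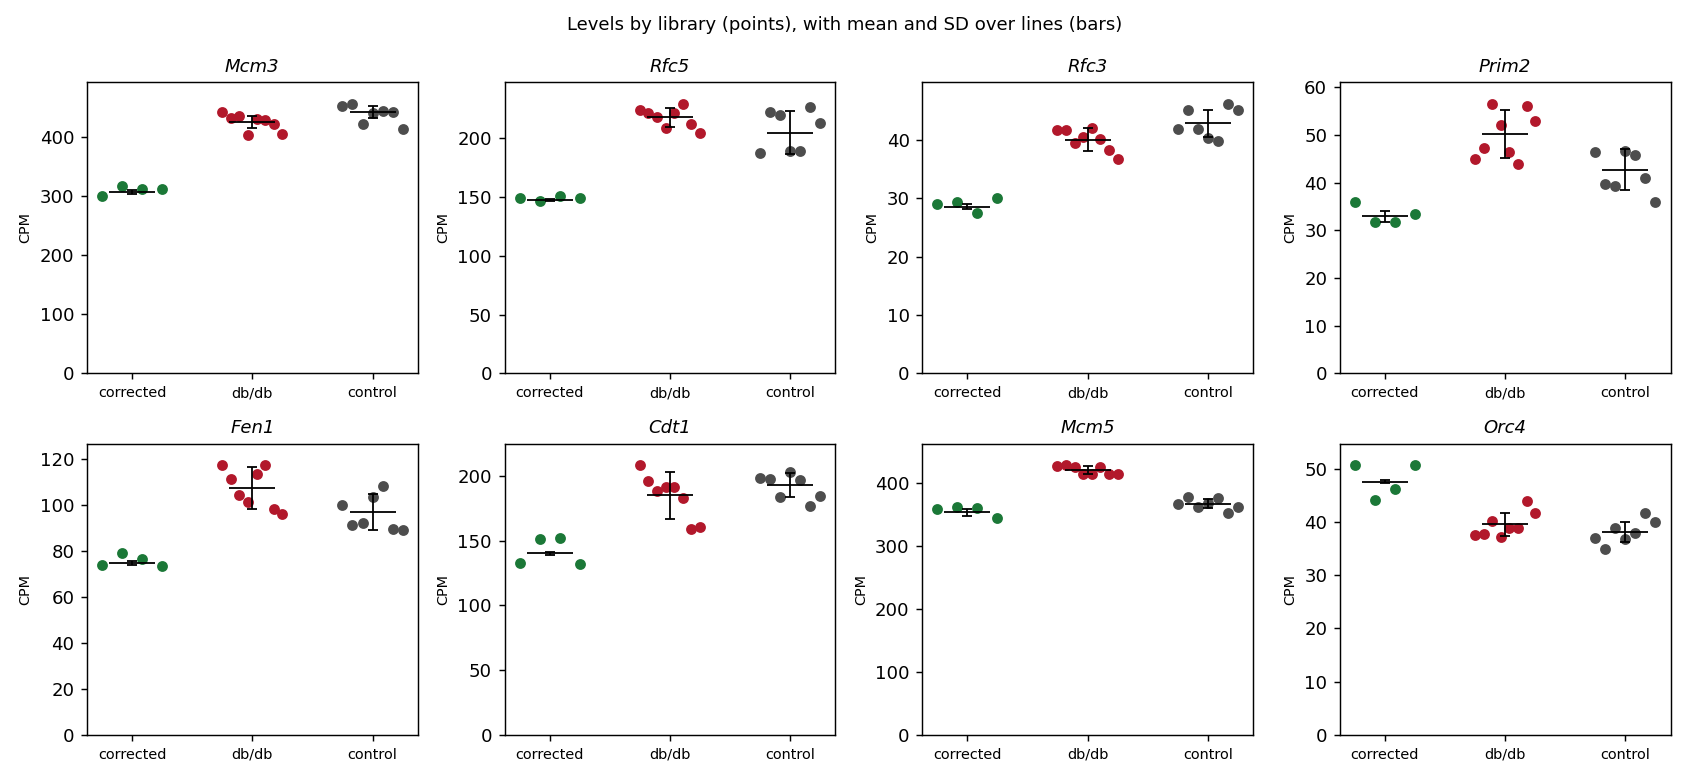
CPM (vertical axis, from 0) of 8 genes in every library, grouped as corrected, db/db and control, with the mean and SD over lines as bars. Corrected libraries are below all others for Mcm3, Rfc5, Rfc3, Fen1 and Cdt1, below db/db libraries for Prim2 and Mcm5, and above all others for Orc4.

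Among polymerases and primase, Prim2 and Prim1, the large and the catalytic subunit of primase, fell against both groups. Prim2 had 33.8 and 32.1 CPM in corrected lines, against 54.7, 54.4, 46.1 and 45.4 CPM in db/db lines. Control lines had 39.6, 38.5, 46.5 and 46.5 CPM. Both corrected lines were below all others, with a log2 value of -0.60 ± 0.12 against db/db lines (adjusted p = 0.00325) and -0.37 ± 0.11 against control lines (adjusted p = 0.031). Prim1 had 51.8 and 52.0 CPM in corrected lines, against 64.8, 63.5, 65.7 and 68.1 CPM in db/db lines. Control lines had 62.0, 64.7, 67.9 and 65.2 CPM. Again the corrected lines were below all others (-0.34 ± 0.06, adjusted p = 0.00241). Pola2, the second subunit of polymerase alpha, which starts each strand with primase, had 59.6 and 61.3 CPM in corrected lines, against 81.3, 76.7, 76.1 and 78.3 CPM in db/db lines. Control lines had 56.0, 54.1, 69.6 and 71.3 CPM. Its db/db levels were above all others, so that Pola2 rose in db/db against control lines (0.32 ± 0.09, adjusted p = 0.0414) and fell in corrected against db/db lines (-0.37 ± 0.11, adjusted p = 0.0287).

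Pola1, the catalytic subunit of polymerase alpha on the X chromosome, had 200.4 and 200.3 CPM in corrected lines, against 209, 247, 175 and 183 CPM in db/db lines. Control lines had 174, 179.8, 211 and 208 CPM. It was not called in any comparison of groups, and db7 lines were above db5 lines (0.35 ± 0.06, adjusted p = 0.00137), while the median log2 over 323 genes of the X chromosome was 0.05 there. Pold1 and Pole, the catalytic subunits of polymerase delta and epsilon, were not called against db/db lines (-0.00 ± 0.07 and 0.03 ± 0.09). Pole averaged 176 ± 1.81 CPM in corrected lines, 173 ± 19.9 CPM in db/db lines and 159 ± 2.19 CPM in control lines (SD, n = 2, 4 and 4).

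The 3 subunits of RPA, which coats single-stranded DNA, all fell in corrected against db/db lines and none was called against control lines. Rpa2 had 101 and 101 CPM in corrected lines, against 124, 113, 146 and 147 CPM in db/db lines. Control lines had 112, 113, 124 and 127 CPM. The fall was 0.40 on the log2 scale (adjusted p = 0.0193), and db5 lines stood above the rest. Rpa1 had 197 and 203 CPM in corrected lines, against 241, 237, 241 and 245 CPM in db/db lines. Control lines had 195, 197, 225 and 225 CPM. The corrected lines overlapped only the control lines, with a log2 value of -0.27 ± 0.07 (adjusted p = 0.0173) against db/db lines. Rpa1 rose in db/db against control lines by 0.19 (adjusted p = 0.0499), close to the threshold. Rpa3, on chromosome 6, had 21.8 and 20.4 CPM in corrected lines, against 25.4, 24.5, 23.3 and 25.9 CPM in db/db lines. Control lines had 24.3, 25.4, 23.5 and 23.4 CPM. Its corrected lines were the lowest (-0.23 ± 0.08 against db/db lines, adjusted p = 0.0416), and B1 lines were not called against A5 lines (0.08 ± 0.06, adjusted p = 0.321).

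Fen1, the flap nuclease that trims Okazaki fragments, had 75.5 and 74.3 CPM in corrected lines, against 103, 96.9, 115 and 116 CPM in db/db lines. Control lines had 92.0, 89.6, 101 and 106 CPM. It fell by 0.52 against db/db lines (adjusted p = 0.00244) and by 0.37 against control lines (adjusted p = 0.0136), and of its 31-base words 76.8% are shared with the predicted gene Gm10143, which was at 0 to 0.139 CPM. Lig1, the ligase that joins the fragments, was not called in a comparison of groups (-0.01 ± 0.07 against db/db lines and -0.13 ± 0.07 against control lines). Of the genes of nucleotide supply, Tyms, thymidylate synthase, had 52.3 and 54.5 CPM in corrected lines, against 63.5, 61.5, 65.7 and 62.7 CPM in db/db lines. Control lines had 62.0, 61.0, 63.1 and 63.6 CPM. It was lowest in both corrected lines and fell against both groups (-0.25 ± 0.06, adjusted p = 0.0085, and -0.22 ± 0.06, adjusted p = 0.0142). Rrm2, the regulated subunit of ribonucleotide reductase, had 337 and 327 CPM in corrected lines, against 366, 367, 452 and 467 CPM in db/db lines. Control lines had 377, 388, 407 and 394 CPM. It fell against db/db lines (-0.32 ± 0.10, adjusted p = 0.0381), where db5 lines were the highest, and Rrm1, the large subunit, was not called (-0.10 ± 0.06).

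**Figure D4:**
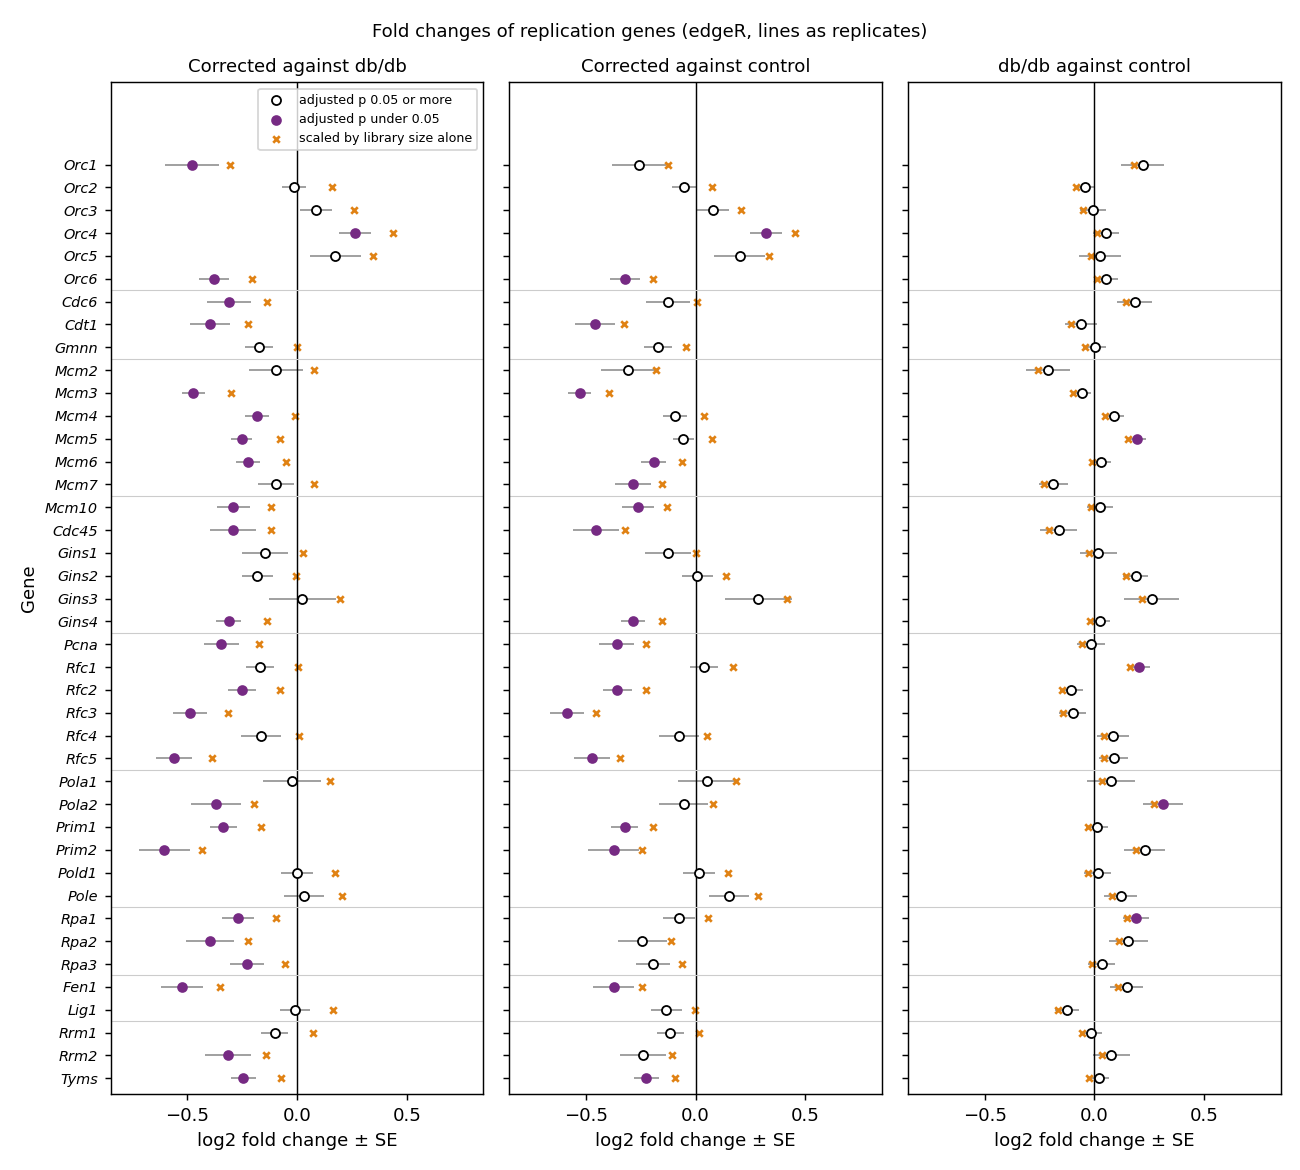
Log2 fold change (points) and SE (grey lines) of each gene, from top to bottom in order of role, for corrected against db/db, corrected against control and db/db against control lines, filled where the adjusted p was under 0.05, with orange crosses for scaling by library size alone. In corrected against db/db lines 24 genes are filled left of 0 and Orc4 right of it, and the crosses lie to the right of the points by 0.17, some of them across 0.

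In single libraries, 25 of the 41 genes had every corrected library below every db/db library and 1 (Orc4) had every one above, against 18.7% and 20.8% of all tested genes (33.1% and 19.1% of those with at least 10 CPM). With library size alone, an alternative chosen after seeing the data, 8 were below and 5 above, against 10.3% and 28.7%. Against control libraries 19 were below and 3 above (Orc4, Gins3 and Pole), where 20.2% and 21.7% of all tested genes were (32.7% and 23.0% of those with at least 10 CPM). Here library size alone gave 15 below and 6 above (Orc3, Orc4, Orc5, Gins3, Rfc1 and Pole), against 14.2% and 27.7%. Between db/db and control libraries 4 genes (Mcm5, Rfc1, Pola2 and Rpa1) had all db/db libraries above all control libraries, against 5.56% of all tested genes and 9.42% of those with at least 10 CPM, and 0 had them below, against 5.67% and 5.61%. Between these groups 2 were above (Mcm5 and Rfc1) and 3 below (Mcm7, Rfc2 and Lig1) with library size alone, against 3.91% and 6.96%.

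The replication genes also differed between lines of the same genotype. In db7 against db5 lines 7 genes rose and 10 fell, 41.5% of the 41, while 42.0% of all tested genes and 55.2% of those with at least 10 CPM were called. By adjusted p the rises were led by Prim2 (0.25 ± 0.04, adjusted p = 0.000485) and Orc5 (0.25 ± 0.04, adjusted p = 0.000933), and the falls by Rrm2 (-0.33 ± 0.04, adjusted p = 5.88e-05) and Cdc45 (-0.30 ± 0.04, adjusted p = 8.25e-05). In B1 against A5 lines 5 rose, among them Mcm2, Rfc5 and Mcm7, and 12 fell, led by Orc1 (-0.36 ± 0.04, adjusted p = 2.43e-05) and Pola2 (-0.36 ± 0.04, adjusted p = 6.24e-05), where 38.8% of all tested genes were called (19.1% rose and 19.7% fell) and 50.8% of those with at least 10 CPM. Scaled by library size alone, 8 rose and 9 fell, against 21.2% and 17.0% of all tested genes, 38.2% in all. With the duplicate number as a replicate block 8 rose and 13 fell in B1 against A5 lines, against 22.8% and 23.8% of the genes tested. The genes of chromosome 3 had a median log2 of 0.33 in db/db against control lines and those of chromosome 15 of -0.45 in B1 against A5 lines, but none of the 41 genes lies on either. Each of these comparisons sets 2 lines against 2, which may be near copies of each other within a name.

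Other genes of replication and of the cell cycle were counted from lists chosen by function. Their counts stand against the same shares of all tested genes as above, with TMM 18.0% falling and 18.7% rising in corrected against db/db lines, 17.0% and 16.2% in corrected against control lines, and 9.5% and 7.41% in db/db against control lines. With library size alone these shares were 9.22% and 26.5%, 10.4% and 22.4%, and 10.9% and 5.51%. Of 50 other replication factors 5 rose and 11 fell in corrected against db/db lines (median log2 -0.15), a share of 22% falling that was below the 30.6% of genes with at least 10 CPM. By lowest adjusted p the 50 were led by Chaf1a, which places histones behind the fork, at -0.66 ± 0.05 (adjusted p = 4.56e-05), Tipin, of the fork protection complex, at -0.63 ± 0.07 (adjusted p = 0.000249), and Cdc7, the kinase that fires origins, at 0.58 ± 0.09 (adjusted p = 0.000974). With library size alone the counts were 10 rises and 3 falls. Against control lines 8 of the 50 rose and 13 fell (10 and 5 with library size alone), and in db/db against control lines 3 rose and 0 fell (2 and 2). The regulators of entry into S phase (35 genes) had 6 rises and 11 falls against db/db lines. The share falling, 31.4%, was near the 30.6% of genes with at least 10 CPM. Wee1 (-0.68 ± 0.06), E2f4 (-0.62 ± 0.07) and Cdk4 (-0.54 ± 0.06) had the lowest p-values in this list, though Wee1 is better known as a kinase that restrains entry into mitosis. These regulators had 7 rises and 8 falls against control lines. Their counts against db/db lines were 8 rises and 8 falls with library size alone. In db/db against control lines 2 of them rose (Cks1b and E2f6) and 0 fell (1 and 1 with library size alone). Of 30 genes of G2 and mitosis 3 rose and 8 fell against db/db lines, led by Ccnb1 (-0.43 ± 0.08, adjusted p = 0.00237). The share falling, 26.7%, was below the same 30.6%. Against control lines 3 rose and 5 fell, and 3 rose (Cdc20, Cenpe and Ccnb2) and 0 fell in db/db against control lines. With library size alone these counts were 6 rises and 2 falls, 7 and 3, and 3 and 1.

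Markers of other cell types moved with the groups, and their part in the results above was not tested. Their sums and counts are on the TMM scale unless stated. Of all tested genes 18.7% rose and 18.0% fell in corrected against db/db lines. The shares were 16.2% and 17.0% in corrected against control lines, and 7.41% and 9.5% in db/db against control lines. Of 12 markers of extraembryonic endoderm 10 rose in corrected against db/db lines, and their summed level was 919.8 and 889 CPM in corrected lines, 511 to 641 CPM in db/db lines and 630.3 to 725 CPM in control lines. Of this list, Sox17 and Gata4 were above 0 in all lines, at 1.20 to 1.55 and 7.22 to 7.26 CPM in corrected lines. Gata6, of the same list, had 1.46 to 1.47 CPM in corrected lines, within the 1.02 to 2.59 CPM of control lines. Of 11 tested fibroblast markers 5 rose, with sums of 233 to 279 CPM in corrected lines, 143 to 204 CPM in db/db lines and 273 to 371 CPM in control lines. These sums came from listed markers other than Lum (0 to 0.0722 CPM) and Dcn (at most 0.325 CPM), which were at or near 0. Dcn had its highest level in the db/db group (0.113 to 0.325 CPM), where the sums were lowest. The 10 pluripotency genes summed to 6160.1 and 6183 CPM in corrected lines, 6769 to 7176 CPM in db/db lines and 6540.0 to 6837 CPM in control lines, with 1 rise and 4 falls in corrected against db/db lines. On library size alone these sums overlapped, at 6687 and 6736 CPM, 6661 to 6820 CPM and 6547 to 6732 CPM. There 1 pluripotency gene rose and 1 fell against db/db lines, while 10 endoderm markers and 6 fibroblast markers rose. Trophoblast markers had 3 rises and 1 fall of 8 in the same comparison, with sums of 32.3 to 32.7 CPM in corrected lines, 44.9 to 48.1 CPM in db/db lines and 36.3 to 47.5 CPM in control lines. Neural progenitor markers had 1 rise and 2 falls of 7 tested, with sums of 31.6 to 31.9 CPM in corrected lines, 43.6 to 71.7 CPM in db/db lines and 73.2 to 115 CPM in control lines. Markers of cells like those of the early cleavage embryo had 2 rises of 9 tested, with sums of 12.6 to 14.5 CPM in corrected lines, 3.52 to 10.7 CPM in db/db lines and 24.9 to 31.4 CPM in control lines. In db/db against control lines 8 of these 9 markers fell (median log2 -2.0), as did 8 of 11 fibroblast markers (median -0.77) and 5 of 12 of extraembryonic endoderm, with 1 of the 12 higher. In corrected against control lines 7 of the 12 endoderm markers rose and 1 fell, 3 fibroblast markers rose and 1 fell, and 4 of the 9 early cleavage markers fell.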

How the data were processed

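Per the labels' protocol and the series' design text, 19 libraries were made with a stranded mRNA kit for NovaSeq sequencing. The deposited values are estimated counts per gene, and kallisto and build GRCm38 are named in the submitters' processing notes, with versions not given in the sources used here. Of the values 79.7% were whole within 1e-06, and 51336 of 52143 IDs had a name in GENCODE M21. Estimated counts were rounded, and duplicate libraries of a line were summed, which left 10 lines (1 control line has 1 library). Genes were filtered with filterByExpr, scaled by TMM and fitted with edgeR 4.0.16 (R 4.3.3) over all 19700 genes, with Benjamini-Hochberg adjustment. Comparisons of genotypes used 1 fit of 3 groups, and those of db7 with db5 and B1 with A5 a fit of 5 groups. Alternatives were other scalings and filters, DESeq2 1.42.0, other units and each line left out. Genes were named with per-line values by role and by lowest adjusted p, and others by their values. The 41 genes and the other lists were chosen with earlier results of these data known. The model code was tested on simulated data. Duplicate numbers paired the libraries: deviations of equally numbered libraries correlated at 0.199 to 0.593 over 12 pairs and 8130 genes. Sharing of 31-base words was computed from GENCODE M21 transcripts, on either strand.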

Additional observations from a re-analysis of the deposited data

Results flagged for a closer look

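In 2 of 82 groups of 4 lines (41 genes in db/db and control lines), 1 line stood apart from the others by a gap beyond Dixon's 95% critical value, which chance gives in about 1 of 20 groups. Orc4 was at 40.802 CPM in control line bB6_B1, while the other control lines were at 36.8 to 37.4 CPM, and both corrected lines were above it. Pole was at 162.061 CPM in control line aB6_A5, while the other control lines were at 157 to 158 CPM, and both corrected lines (175 and 178 CPM) were above it.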

How the results depend on the processing

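No gene called in a comparison of genotypes reversed its direction under an alternative run for it (single genes of db7 against db5 and B1 against A5 lines were not followed), and upper quartile and RLE scaling, DESeq2 and a filter of 1 CPM kept every count within 1.5 times. Scaling by library size alone, corrected against db/db lines gave 3 rises and 6 falls, corrected against control lines 3 and 9, db/db against control lines 1 rise, and B1 against A5 lines 8 rises. With shared names as the unit the counts were 0 rises and 8 falls in corrected against db/db lines, 0 and 5 in corrected against control lines, and 0 rises in db/db against control lines. With only the groups compared, 2 genes rose in db/db against control lines, against 5.41% of all genes tested. In corrected against control lines 2 rose, against 19.8%. In B1 against A5 lines 9 rose, against 24.1%, and in db7 against db5 lines 5 fell, against 16.8%. With no filter 0 rose in corrected against db/db lines, against 9.39% of all genes tested. With each library as a sample and no replicate block, 12 rose and 5 fell in db/db against control lines. Of all genes tested in that fit 20.4% rose and 20.9% fell. In corrected against control lines 4 rose there, against 26.7%. With the duplicate number as a replicate block 9 rose and 4 fell in db/db against control lines, where 18.1% and 20% of all genes did. In B1 against A5 lines 8 rose, against 22.8%. With the same libraries and no block, chosen after seeing the data, 8 rose and 4 fell in db/db against control lines. Of the genes tested in that fit 18.2% rose and 19.8% fell. Leaving out each line in turn gave 8 to 24 falls and 0 to 1 rises in corrected against db/db lines (9 without db_c_1 and 8 without db_c_2), 3 to 16 falls and 0 to 1 rises in corrected against control lines (4 and 3), and 1 to 5 rises and 0 falls in db/db against control lines. It gave 6 to 11 rises and 8 to 16 falls in db7 against db5 lines (11 and 16 without adb_db7), and 3 to 9 rises and 7 to 14 falls in B1 against A5 lines (7 falls without bB6_A5 or bB6_B1, 3 rises without bB6_B1, and 9 rises without adb_db7 or bdb_db7, which are in neither group but share the spread). Over all tested genes, leaving out each line gave 3.99% to 7.01% rises and 6.18% to 9.56% falls in db/db against control lines. In B1 against A5 lines 22% and 22.1% of all tested genes rose without adb_db7 or bdb_db7. In the same comparison 13.9% fell without bB6_A5, and 13.7% rose and 13.8% fell without bB6_B1. In db7 against db5 lines 22.5% of all tested genes rose and 24% fell without adb_db7. The fits without bB6_A5, bB6_B1 or adb_db7 leave 1 line of that name, so no conclusion is drawn from their counts. Each such fit has fewer samples, and the cause of the other moves was not tested. The corrected group has 2 lines, which limits the precision of its comparisons. For Gmnn, Cdt1 and Pold1 the libraries of a corrected line differed more than the 2 lines did. Tests on sums per line do not count that spread.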
